A study of Mus musculus with 36 samples.

Results

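The proteasome subunit genes were taken as the genes whose symbol in the platform annotation begins with Psm, one of the letters a to g, and a digit. The rule matched 41 of the 9930 genes on the array, measured by 51 probes. Of these, 39 encode parts, assembly factors or regulators of the proteasome (46 probes), and Psmc3ip and Psme3ip1 match by spelling only and were kept out of all counts. The 39 genes fall into 17 core genes (6 alpha subunits, 7 constitutive beta subunits and 4 inducible or tissue-specific beta subunits) and 22 regulatory genes. The regulatory genes are 5 ATPases and 7 non-ATPase subunits of the cap, 3 cap assembly chaperones, 4 activators, 1 inhibitor and 2 core assembly chaperones. The rule itself uses symbols and no measured values.

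The cells were mouse NIH3T3 fibroblasts transfected with Erbb2, a receptor tyrosine kinase, in a tet-off system, in which tetracycline is meant to switch the transgene off. RNA was taken after 1, 2, 4, 12 and 24 h and 3, 5 and 7 days of tetracycline, with 4 arrays per time, and from untreated cells of the same kind, where 2 of the 4 columns differed by a constant and were counted as 1 array. That left 35 arrays. On every array the second channel held untreated Erbb2-transfected cells, so each value is a log2 ratio to such cells and not a level. All groups carry the transgene, and the labels name neither the promoter, the number of clones nor separate cultures, so p-values measure the spread between arrays, which may be technical. The design text speaks of a pair of untreated lines as the control and the protocols speak of organs and animals, which conflicts with the cell line labels. Arrays with the first channel in Cy3 were multiplied by -1. This turning was assumed, and no file states it, so every direction below rests on it. No probe is named Erbb2 in the annotation used here, so the switch itself was not checked.

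The proteasome degrades proteins tagged with ubiquitin. Its core particle (20S) is a barrel of stacked rings, with alpha subunits that gate the entrance and beta subunits that include the proteolytic sites. The regulatory cap (19S) binds and unfolds substrates with a ring of ATPases. Other activators open the barrel without the cap, and in cells exposed to interferon the inducible beta subunits replace the constitutive catalytic ones. In mammals the factor Nrf1 (gene Nfe2l1) raises many subunit genes together, through antioxidant response elements, when proteasome capacity is short.

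Because subunit genes are known to be controlled together, the stretch around the start site, 250 bases before to 50 after, was read for 3 motifs on both strands. RefSeq promoters (GRCm38.p6) were matched for 33 of the 39 genes. A gene was counted if any of its start sites matched, whereas the shares over all are per promoter, so the units differ. TGACNNNGC, a core of the antioxidant response element, was found in 5 of 33 genes (Psmb5, Psmb6, Psmc6, Psmd9 and Psme4), against 12.4% of all 32851 promoters. CCAAT was found in 12 of 33, against 37.4% of all promoters. The interferon-stimulated response element was found in 4 of 33, against 3.44% of all. Of the 9 genes called below, 1 held the first motif, 2 held CCAAT and 0 held the last. Below are Psmb4, the gene with the smallest adjusted p, Psmb5, the one called gene with TGACNNNGC, and the first listed of the start sites of Psma6, a called gene with CCAAT. Capitals mark these motif letters on either strand, and Psmb4 has none. The other start site of Psma6 has none either. A match describes letters and shows no binding.
Psmb4 (chr3:94886909-94887208, minus strand): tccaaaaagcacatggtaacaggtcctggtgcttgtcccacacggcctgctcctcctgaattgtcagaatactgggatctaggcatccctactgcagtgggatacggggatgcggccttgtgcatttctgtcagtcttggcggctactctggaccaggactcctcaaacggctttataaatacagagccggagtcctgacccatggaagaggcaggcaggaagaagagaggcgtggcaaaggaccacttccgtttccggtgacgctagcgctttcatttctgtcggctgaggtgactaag
Psmb5 (chr14:54617946-54618245, minus strand): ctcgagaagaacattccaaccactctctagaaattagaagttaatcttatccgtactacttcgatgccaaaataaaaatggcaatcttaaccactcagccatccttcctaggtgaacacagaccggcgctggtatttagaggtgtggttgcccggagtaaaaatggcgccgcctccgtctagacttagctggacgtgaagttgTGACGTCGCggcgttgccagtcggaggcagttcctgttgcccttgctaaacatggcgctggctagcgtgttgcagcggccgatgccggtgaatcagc
Psma6 (chr12:55383972-55384271, plus strand): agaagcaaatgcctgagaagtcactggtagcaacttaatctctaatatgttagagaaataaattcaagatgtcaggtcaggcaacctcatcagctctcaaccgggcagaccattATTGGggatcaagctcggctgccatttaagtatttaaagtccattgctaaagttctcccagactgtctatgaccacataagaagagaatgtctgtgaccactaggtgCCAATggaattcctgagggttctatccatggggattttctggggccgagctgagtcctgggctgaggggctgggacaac

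Between 17508 and 20010 probes per array carried a value. The arrays were not equally spread. The median SD of a gene over the arrays of a group was 0.67 at 3 days, 0.44 at 5 days and 0.49 at 7 days, against 0.24 at 1 h, 0.21 at 2 h, 0.23 at 4 h and 0.33 in untreated cells. On the 3-day arrays, turned arrays of opposite dye correlated at -0.19 to -0.11 over all genes, and the untreated arrays at -0.43 to -0.38, whereas arrays of the same dye correlated at 0.15 and 0.23 at 3 days. Opposite dyes did not agree at the other times either: turned arrays of opposite dye correlated at -0.00 to 0.03 at 1 h, 0.02 to 0.08 at 2 h and -0.05 to -0.01 at 4 h, where arrays of the same dye correlated at 0.11 to 0.40. The values were -0.05 to -0.00 at 12 h, -0.01 to 0.05 at 24 h, 0.02 to 0.05 at 5 days and -0.00 to 0.03 at 7 days. This touches every result below.

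**Figure D1:**
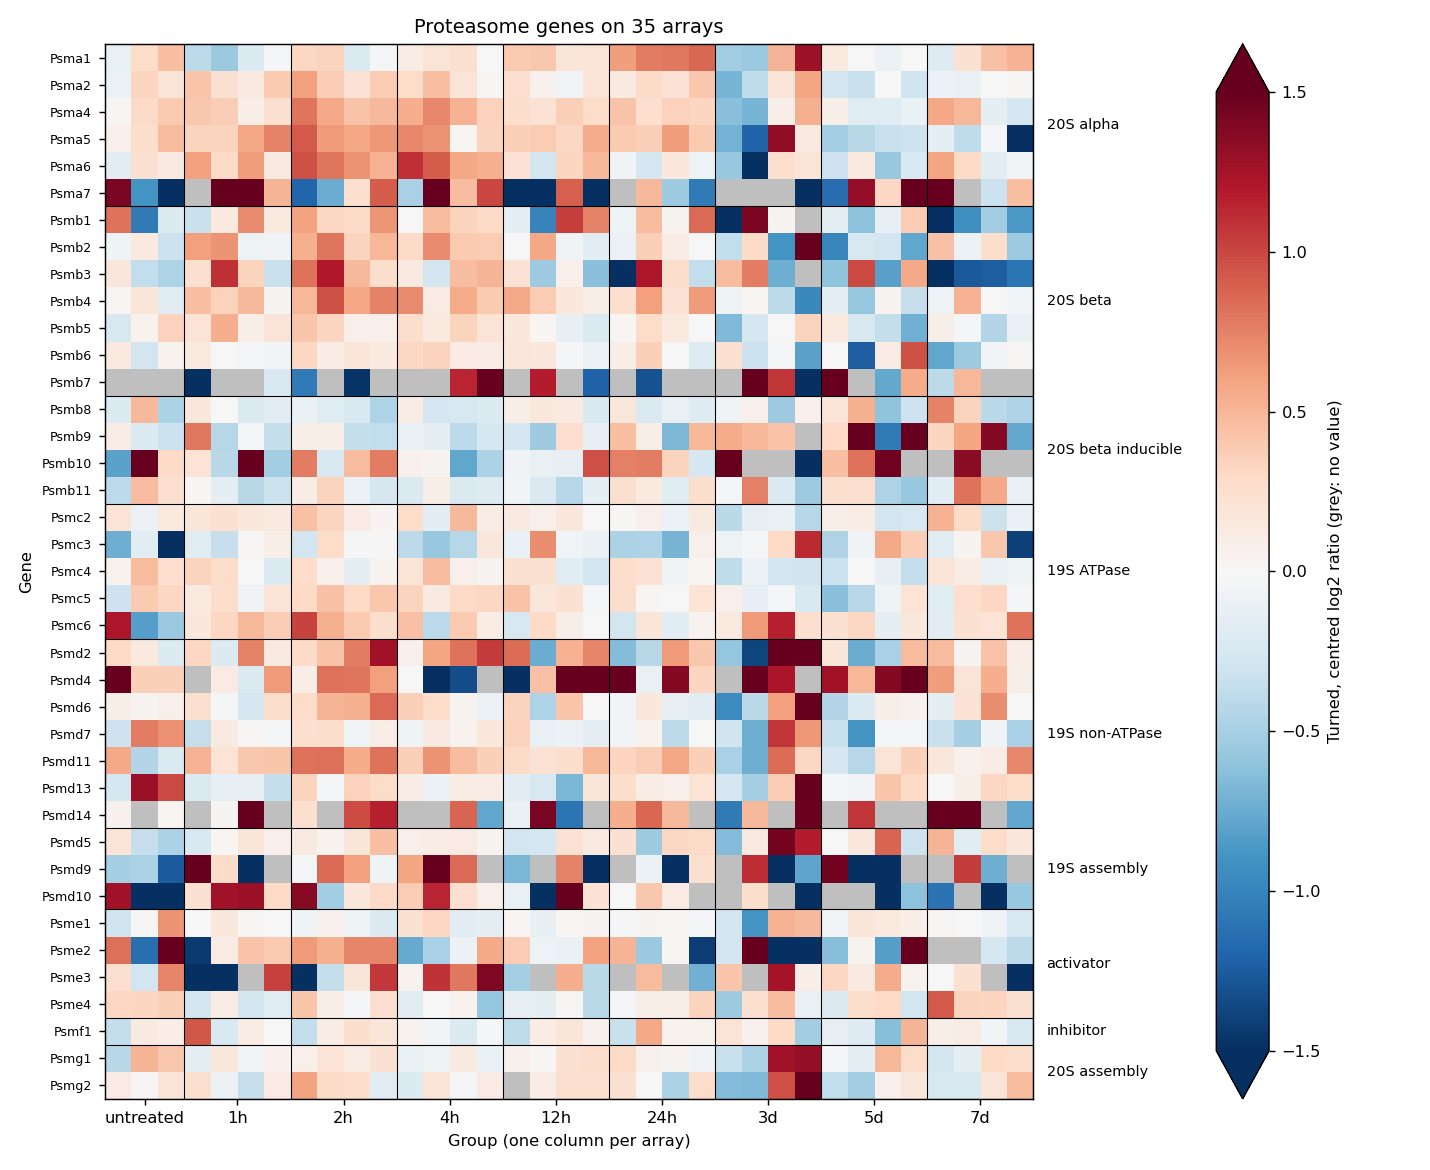
Turned, centred log2 ratio of each of the 39 proteasome genes (rows, by role) on each of the 35 arrays (columns, untreated first, then by time); grey marks no value, and colours saturate at the ends of the scale. Most core rows are above 0 at 2 h, the 3-day arrays differ among themselves, and Psmb7 and Psmd14 have many gaps.

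The clearest difference lay within the course. The 12 late arrays (3, 5 and 7 days) were set against the 12 early arrays (1, 2 and 4 h), a comparison that does not use the untreated arrays and holds both dyes equally. With limma, 9 of the 31 proteasome genes with at least 3 values at each of these times were lower late than early at an adjusted p under 0.05, and 0 were higher. Over all 8282 genes tested, 6.70% were called in either direction and 4.24% were called lower. The 9 were the alpha subunits Psma2, Psma4, Psma5 and Psma6, the beta subunits Psmb4 and Psmb5, the cap ATPases Psmc4 and Psmc5, and the cap subunit Psmd11. The median over the 31 genes was -0.22, and over all genes it was -0.00.

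This fit uses 1 spread per gene for all groups, which the SDs above do not bear out. On simulated data in which each group had its own spread, it called more unchanged genes than its threshold allows. With separate spreads for late and early arrays, a test added after that was seen, 4 of the 31 genes passed, namely Psmb4, Psmd11, Psma5 and Psma2, against 4.44% of all genes. The adjusted p became 0.0509 for Psma6, 0.0798 for Psma4, 0.0814 for Psmb5, 0.114 for Psmc5 and 0.137 for Psmc4. For these 9 genes the estimated differences are the same in both tests. The calls also rest on the turning and centring of the arrays: without turning, the only 2 proteasome genes called were Psmg1 (-0.42) and Psmg2 (-0.62), and none of the 9, and without centring 2 were called.

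Of 14 core genes tested, 6 were called lower and the median difference was -0.46. Of 17 regulatory genes tested, 3 were called lower and the median was -0.02. This class was mixed, also by dye. On Cy5 and Cy3 arrays Psmd2 differed by -0.58 and 0.02, Psmd6 by -0.59 and 0.33 and Psmd7 by -0.57 and 0.14. Psmd11 differed by -0.85 and -0.08 and Psmd13 by -0.11 and 0.48. Among the core chaperones, Psmg1 differed by -0.25 and 0.58 and Psmg2 by -0.62 and 0.62. Psmc2 (-0.13 and -0.42), Psme3 (1.37 and -1.01) and Psmf1 (-0.05 and -0.16) were lower on Cy3 arrays. A median over both dyes near 0 can therefore hide opposite signs. The 5 cap ATPases tested had a median of -0.26 (4 negative, 2 called). The 5 non-ATPase cap subunits tested had a median of -0.22 (4 negative, 1 called). The medians were 0.21 for 3 activators and 0.08 for 2 core chaperones. The 1 cap chaperone tested stood at 0.20 and the inhibitor at -0.11. Among the 11 constitutive core genes tested 10 were negative, with a median of -0.56. The exception was Psma1 at 0.16, with -0.15 on Cy5 and 0.48 on Cy3 arrays. Of the untested ones, Psmb7 averaged 0.58 late (n = 8) and -0.50 early (n = 6), and Psma7 0.53 (n = 8) and 0.64 (n = 11). The difference between the classes was not tested, and its order rests on the turning: without turning, the core median was -0.17 and the regulatory median -0.23, with 0 and 2 genes called lower.

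**Figure D2:**
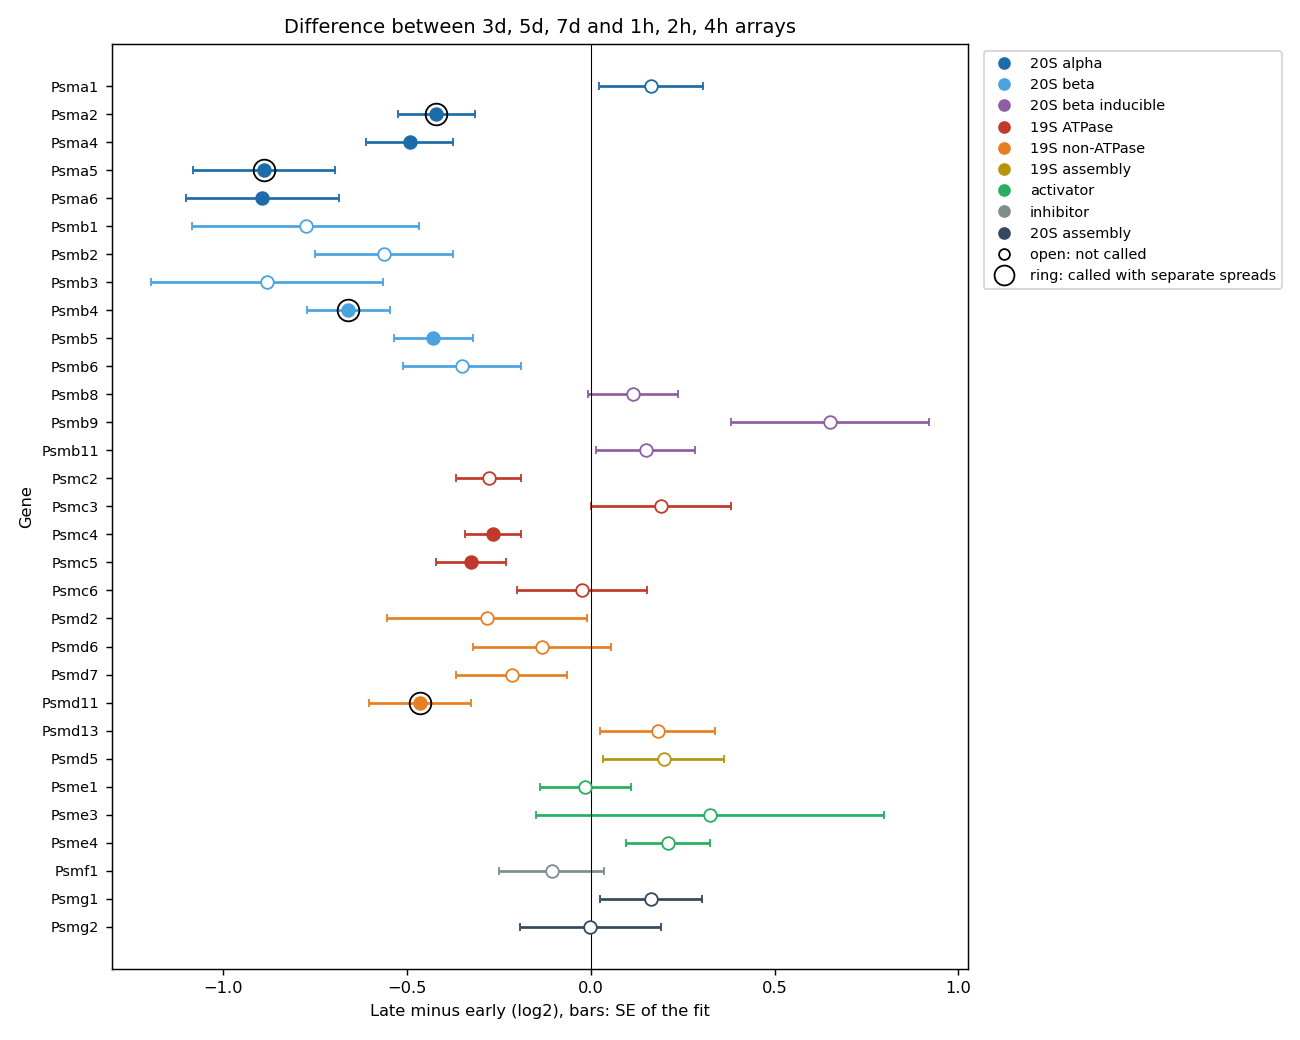
Late minus early difference (log2) of each tested proteasome gene by role, with bars of 1 SE of the limma fit; filled points were called by limma and rings mark those also called with separate spreads. The constitutive alpha and beta subunits lie left of 0 except Psma1, and the 3 inducible or tissue-specific subunits tested lie right of it.

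Psmb4, a beta subunit without a proteolytic site, had the smallest adjusted p. Psmb4 gave -0.08, 0.02, -0.39 and -0.97 at 3 days, -0.13, -0.57, 0.04 and -0.34 at 5 days and -0.07, 0.52, -0.01 and -0.04 at 7 days, against 0.45, 0.35, 0.49 and 0.04 at 1 h, 0.49, 0.95, 0.58 and 0.74 at 2 h and 0.71, 0.12, 0.56 and 0.40 at 4 h. Otherwise Psmb4 gave 0.57, 0.38, 0.15 and 0.09 at 12 h and 0.25, 0.62, 0.22 and 0.64 at 24 h, against 0.03, 0.18 and -0.17 on the untreated arrays. All 20 arrays of 1 to 24 h were above 0. Psmb4 averaged -0.17 ± 0.37 late and 0.49 ± 0.25 early (SD, n = 12 each), a difference of -0.66 (SE 0.11, limma adjusted p = 0.000143, and 0.00444 with separate spreads). It was -0.56 on Cy5 arrays and -0.75 on Cy3 arrays. Its 2 probes gave -0.80 and -0.58. Psmb4 was also the 1 gene of 30 called for a change at any time (limma moderated F, adjusted p = 0.00477), where 5.32% of all genes were called. That call was lost with the 5- and 7-day rows as deposited (adjusted p = 0.0594) and without turning (0.990). Psmb5 carries the chymotrypsin-like site of the core. Psmb5 gave -0.67, -0.25, -0.01 and 0.34 at 3 days, 0.14, -0.24, -0.36 and -0.72 at 5 days and 0.08, -0.01, -0.44 and -0.10 at 7 days, against 0.20, 0.55, 0.10 and 0.20 at 1 h, 0.42, 0.33, 0.08 and 0.08 at 2 h and 0.26, 0.15, 0.33 and 0.20 at 4 h. Otherwise Psmb5 gave 0.15, 0.03, -0.12 and -0.22 at 12 h and 0.02, 0.27, 0.15 and -0.00 at 24 h, against -0.24, 0.06 and 0.34 on the untreated arrays. Psmb5 was lower late by a difference of -0.43 (SE 0.11, limma adjusted p = 0.0115).

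The alpha subunits form the outer rings, and 4 of the 5 tested were called lower. Psma5 gave -0.71, -1.20, 1.33 and 0.13 at 3 days, -0.51, -0.41, -0.34 and -0.31 at 5 days and -0.13, -0.38, -0.02 and -1.56 at 7 days, against 0.33, 0.33, 0.58 and 0.74 at 1 h, 0.92, 0.64, 0.58 and 0.65 at 2 h and 0.72, 0.67, 0.02 and 0.34 at 4 h. Otherwise Psma5 gave 0.36, 0.38, 0.30 and 0.56 at 12 h and 0.39, 0.36, 0.62 and 0.39 at 24 h, against 0.07, 0.26 and 0.47 on the untreated arrays. Late and early arrays overlapped through a few high late arrays, the highest a 3-day Cy3 array. The difference for Psma5 was -0.89 (SE 0.19, limma adjusted p = 0.00286). Psma6 gave -0.57, -2.56, 0.25 and 0.19 at 3 days, -0.31, 0.14, -0.57 and -0.23 at 5 days and 0.59, 0.30, -0.16 and -0.04 at 7 days, against 0.61, 0.30, 0.62 and 0.14 at 1 h, 0.95, 0.81, 0.67 and 0.53 at 2 h and 1.10, 0.91, 0.58 and 0.53 at 4 h. Otherwise Psma6 gave 0.22, -0.28, 0.32 and 0.50 at 12 h and -0.06, -0.25, 0.15 and -0.08 at 24 h, against -0.15, 0.23 and 0.14 on the untreated arrays. One 3-day array of Psma6 lay far below the others. Its difference was -0.89 (SE 0.21, limma adjusted p = 0.0056).

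Psma4 gave -0.62, -0.70, 0.09 and 0.53 at 3 days, 0.09, -0.18, -0.18 and -0.10 at 5 days and 0.57, 0.50, -0.13 and -0.25 at 7 days, against 0.41, 0.37, 0.10 and 0.25 at 1 h, 0.80, 0.57, 0.43 and 0.49 at 2 h and 0.54, 0.72, 0.52 and 0.34 at 4 h. Otherwise Psma4 gave 0.27, 0.21, 0.36 and 0.27 at 12 h and 0.43, 0.25, 0.35 and 0.32 at 24 h, against 0.03, 0.29 and 0.39 on the untreated arrays. Every one of the 20 arrays of 1 to 24 h was above 0 for this alpha subunit, as for Psmb4, Psma5 and Psmd11. The share of all genes with such a count was not taken. The untreated arrays of Psma4 were above 0 too. The difference for Psma4 was -0.49 (SE 0.12, limma adjusted p = 0.00774). Psma2 gave -0.70, -0.38, 0.20 and 0.59 at 3 days, -0.27, -0.34, 0.01 and -0.29 at 5 days and -0.09, -0.11, 0.00 and 0.02 at 7 days, against 0.41, 0.23, 0.13 and 0.39 at 1 h, 0.62, 0.37, 0.21 and 0.38 at 2 h and 0.28, 0.45, 0.19 and 0.02 at 4 h. Otherwise Psma2 gave 0.25, 0.06, -0.05 and 0.21 at 12 h and 0.14, 0.28, 0.21 and 0.41 at 24 h, against -0.09, 0.32 and 0.20 on the untreated arrays. The late values of Psma2 split by dye at 3 days, negative in Cy5 and positive in Cy3. Those of Psma4, Psma5, Psma6 and Psmd11 split in the same way. So did those of genes that were not called, namely Psma1, Psmc3, Psmd2, Psmd6, Psmd7, Psmd13, Psme1, Psmg1 and Psmg2. The split was thus not particular to the called genes. The difference for Psma2 was -0.42 (SE 0.10, limma adjusted p = 0.0100), at -0.71 on Cy5 and -0.13 on Cy3 arrays. On Cy5 and Cy3 arrays, Psma4 differed by -0.62 and -0.36, Psma5 by -1.16 and -0.61 and Psma6 by -1.18 and -0.60. Likewise Psmb5 differed by -0.48 and -0.38, Psmc4 by -0.35 and -0.18 and Psmc5 by -0.44 and -0.21. Psma7 had too few values for this comparison and scattered widely, between -4.30 and 5.61.

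**Figure D3:**
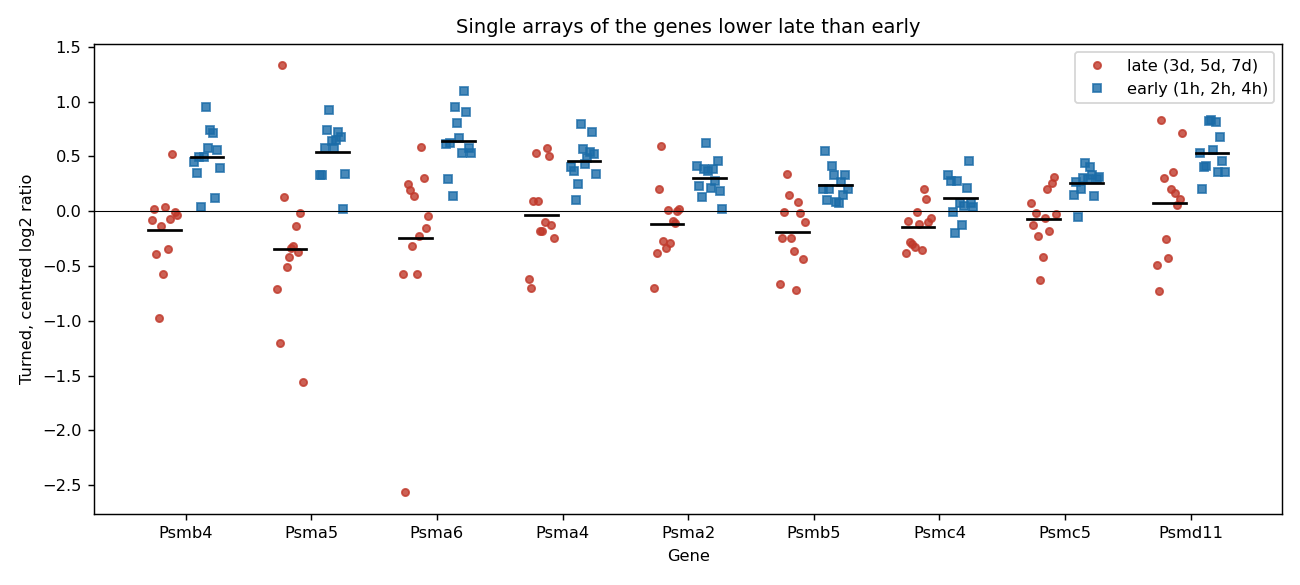
Turned, centred log2 ratio of the 9 called genes on each late array (circles, 3, 5 and 7 days) and each early array (squares, 1, 2 and 4 h), with black lines at the means. Late means lie below early means for each gene, and the values overlap in each.

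The constitutive beta subunits that were tested but not called were negative too. Psmb1 was at -0.77 (adjusted p = 0.166), Psmb2 at -0.56 (0.0717), Psmb3 at -0.88 (0.105) and Psmb6 at -0.35 (0.261), all by limma. None of the 3 inducible or tissue-specific beta subunits tested was called, and Psmb10 had too few values to be tested. Psmb8 stood at 0.11, Psmb11, a subunit of the thymus, at 0.15 and Psmb9 at 0.65 (limma adjusted p = 0.186).

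In the cap, the ATPases Psmc4 and Psmc5 and the lid subunit Psmd11 were called. Psmc4 gave -0.38, -0.09, -0.28 and -0.30 at 3 days, -0.32, -0.01, -0.12 and -0.36 at 5 days and 0.20, 0.11, -0.10 and -0.07 at 7 days, against 0.34, 0.28, -0.01 and -0.20 at 1 h, 0.28, 0.08, -0.13 and 0.05 at 2 h and 0.21, 0.46, 0.08 and 0.04 at 4 h. Otherwise Psmc4 gave 0.23, 0.23, -0.17 and -0.29 at 12 h and 0.27, 0.22, -0.05 and 0.03 at 24 h, against 0.06, 0.47 and 0.26 on the untreated arrays. The difference for Psmc4 was -0.26 (SE 0.08, limma adjusted p = 0.0313). Psmc5 gave 0.08, -0.12, -0.01 and -0.23 at 3 days, -0.62, -0.42, -0.07 and 0.20 at 5 days and -0.18, 0.26, 0.31 and -0.02 at 7 days, against 0.14, 0.27, -0.05 and 0.20 at 1 h, 0.30, 0.44, 0.30 and 0.40 at 2 h and 0.33, 0.14, 0.30 and 0.31 at 4 h. Otherwise Psmc5 gave 0.42, 0.17, 0.22 and -0.01 at 12 h and 0.26, 0.03, -0.01 and 0.20 at 24 h, against -0.31, 0.39 and 0.31 on the untreated arrays. Psmc5 differed by -0.33 (SE 0.09, limma adjusted p = 0.0336), but its 3 probes gave -0.74, -0.46 and 0.22, so they disagree. Psmd11 gave -0.49, -0.73, 0.84 and 0.31 at 3 days, -0.25, -0.42, 0.20 and 0.36 at 5 days and 0.17, 0.06, 0.11 and 0.72 at 7 days, against 0.53, 0.20, 0.41 and 0.42 at 1 h, 0.82, 0.83, 0.55 and 0.82 at 2 h and 0.36, 0.68, 0.46 and 0.36 at 4 h. Otherwise Psmd11 gave 0.29, 0.22, 0.26 and 0.50 at 12 h and 0.32, 0.37, 0.58 and 0.36 at 24 h, against 0.56, -0.44 and -0.22 on the untreated arrays. Psmd11 differed by -0.46 (SE 0.14, limma adjusted p = 0.0402), with -0.85 on Cy5 and -0.08 on Cy3 arrays, and its 2 probes gave -0.61 and -0.32. Just past the threshold lay the ATPase Psmc2, at -0.28 (adjusted p = 0.0566). Too few values were left to test 8 of the 39 genes in this comparison, namely Psma7, Psmb7, Psmb10, Psmd4, Psmd9, Psmd10, Psmd14 and Psme2. The other tested members were not called. The activators Psme1 (-0.01), Psme3 (0.32) and Psme4 (0.21), the inhibitor Psmf1 (-0.11) and the core chaperones Psmg1 (0.16) and Psmg2 (-0.00) had adjusted p-values of 0.376 or more.

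Set against the untreated arrays, no proteasome gene passed at any of the 8 times, by limma over all genes. Unadjusted p under 0.05 was reached by 3, 3, 2, 4, 1, 4, 4 and 3 genes at 1, 2, 4, 12 and 24 h and 3, 5 and 7 days. That is 8.11%, 8.11%, 5.41%, 10.8%, 2.78%, 12.1%, 11.1% and 8.82% of the proteasome genes tested, against 5.17%, 6.03%, 4.27%, 4.36%, 4.49%, 12.3%, 10.9% and 10.9% of all genes. The 8 comparisons share the 3 untreated arrays. Over all genes, 0.250% were called at 1 h, 0.549% at 2 h, 0.268% at 4 h, 0.0218% at 12 h and 0.0219% at 24 h. The share was 0.500% at 3 days, 1.59% at 5 days and 1.12% at 7 days. The smallest adjusted p was that of Psmc4 at 3 days (-0.56, SE 0.14, adjusted p = 0.0732). At 2 h Psmd11 differed by 0.82 (adjusted p = 0.282) and Psmb4 by 0.65 (adjusted p = 0.288).

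The median difference of the core genes from untreated was 0.22 at 1 h, 0.29 at 2 h, 0.22 at 4 h, 0.06 at 12 h, 0.11 at 24 h, -0.20 at 3 days, -0.22 at 5 days and 0.06 at 7 days. For the regulatory genes it was -0.00, 0.17, 0.04, 0.02, -0.07, 0.03, -0.18 and -0.01 at the same times. Taken only over the genes tested by limma at each time, the core medians were 0.23, 0.30, 0.23, 0.04, 0.12, -0.17, -0.22 and 0.06. The regulatory ones were then 0.02, 0.16, 0.07, 0.04, -0.02, 0.04, -0.12 and -0.01. The array medians of the core ran from 0.24 to 0.50 at 2 h, against -0.02 to 0.20 in untreated cells. These medians carry no test.

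**Figure D4:**
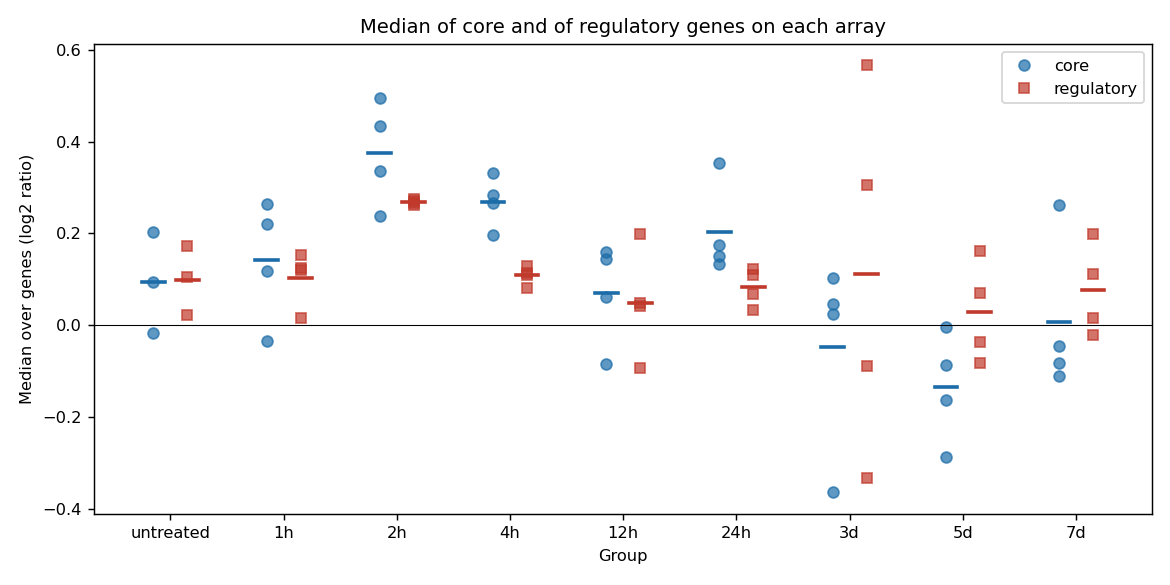
Median log2 ratio over the core genes (circles) and over the regulatory genes (squares) on each array, by group, with lines at the group means. The 2 h core medians lie between 0.24 and 0.50, and the 3-day regulatory medians run from -0.33 to 0.57.

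At 2 h, 8 of 37 genes had all 4 arrays above every untreated array (Psma4, Psma5, Psma6, Psmb2, Psmb3, Psmb4, Psmd6 and Psmd9), against 7.44% of all genes, and 0 had all below, against 3.37%. These were 6 of 16 core and 2 of 21 regulatory genes. At 1 h, 0 of 33 lay above (3.90% of all genes) and 1 below (3.84%). At 4 h, 2 of 35 lay above (4.39%) and 1 below (2.47%). At 12 h, 1 of 34 lay above (3.09%) and 1 below (2.73%). At 24 h, 2 of 33 lay above (3.31%) and 0 below (2.72%). At 3 days, 1 of 28 lay above (1.93%) and 2 below (2.19%). At 5 days, 0 of 34 lay above (4.12%) and 3 below (4.18%). At 7 days, 0 of 31 lay above (3.88%) and 2 below (3.19%). Psme4, an activator, lay apart at 4 times, always below, and Psma5 at 3 times. Psma6, Psmb2, Psmb3, Psmb4, Psmc3 and Psmc4 lay apart at 2 times each.

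The difference from untreated was averaged over the times with at least 3 values, all 8 unless stated, and spanned the following members in each role, as values with no test. Psmb7 and Psmd14 had no such time. The alpha subunits ran from Psma5 (-0.06) to Psma7 (1.64 over 7 times, without 3 days) and the beta subunits from Psmb5 (-0.03) to Psmb1 (0.20). The inducible or tissue-specific beta subunits ran from Psmb11 (-0.18) to Psmb9 (0.24). The ATPases ran from Psmc4 (-0.29) to Psmc3 (0.79) and the non-ATPase subunits from Psmd13 (-0.53) to Psmd11 (0.38). The cap chaperones ran from Psmd9 (0.25 over 7 times) to Psmd10 (0.93 over 6 times, without 3 and 5 days), the activators from Psme2 (-0.63 over 7 times) to Psme1 (-0.11), and the core chaperones stood at 0.02 for Psmg1 and Psmg2. The inhibitor Psmf1 stood at 0.06. Of genes with several probes, those of Psmb4 agreed best over arrays (Spearman rho 0.39, 34 arrays) and those of Psmf1 worst (-0.40, 32 arrays), as descriptions.

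Of 69 tested genes of the wider pathway, 4 were called late against early (5.80%), a share near that of all genes (6.70%). Of 6 proteasome-bound or assembly factors, Pomp, which assembles the core, was lower late, at -0.10 ± 0.28 late and 0.49 ± 0.27 early (SD, n = 12 each), a difference of -0.59 (SE 0.10, limma adjusted p = 7.09e-05, and 0.00686 with separate spreads). Pomp was also called for a change at any time (adjusted p = 0.00379). Of 16 ubiquitin-conjugating genes, Ube2n was lower (-0.43, limma adjusted p = 0.00327). Of 26 deubiquitinases, Usp1 was lower (-0.59, adjusted p = 0.0291) and Usp22 higher (0.55, adjusted p = 0.00579). None was called among 1 ubiquitin or E1 gene, 7 segregase and shuttle genes, 7 regulators of subunit transcription and 6 COP9 signalosome genes, of which Cops8 was called for any time (adjusted p = 0.0424).

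Fibroblast markers moved with the same contrast. Of 10, 5 were higher late than early (Col1a1 by 1.69, Col1a2 by 1.73, Col3a1 by 1.27, Dcn by 2.49 and Pdgfrb by 0.56) and 3 were lower (Fn1 at -0.31, S100a4 at -1.48 and Vim at -1.05), all by limma. With separate spreads Fn1 was not called (adjusted p = 0.153). Of 10 markers of epithelial, immune, endothelial, liver and muscle cells, 0 were called. Ratios give no level, so absence of other cells cannot be read from them. The part of these changes in the proteasome result was not tested.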

How the data were processed

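The deposited values are log2 ratios of 2 channels on cDNA arrays, per the labels' dyes and the values; software, background correction, numerator and genome build are not given in the sources used here. Values above 12 were dropped (2807) and the median of every array was set to 0. Values of the 8 arrays of 5 and 7 days slide against the probe rows at 4 points (rows 6055, 7337, 7854 and 18337) and were moved back, leaving out 476 probes per array. Replicate 1 at 5 days was also offset by 1 row along its whole length, and this offset was moved back as well. Replicates 1 and 2 of the untreated cells, offset by 0.771 throughout (SD 0.0005), counted as 1 array. Probes of a gene were averaged: 14030 of 20355 probes had 1 symbol, 5 several and 6320 none.

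Group means and a dye effect were fitted to 35 arrays with limma 3.58.1 in R 4.3.3, with at least 3 values per group and Benjamini-Hochberg adjustment over all genes tested. Tested on simulated data, the fit held its error rate when all groups had 1 spread per gene, but not when each group had its own spread. Its adjusted p-values are therefore likely too small here. By how much is not known, as the simulated spreads were SDs over the few arrays of each group, dye differences included. A test with separate spreads for late and early arrays was added after the simulation was seen. It came closer to its error rate and is given beside the late minus early calls. No such test was made for the comparisons with untreated or for a change at any time, and their calls carry the same limit.

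Members and lists were chosen with earlier results of these data known. Named were members called in any contrast, the extremes of each role by mean difference from untreated, the members apart from untreated most often, the best and worst probe agreement, and called genes of the lists. Replicate numbers were not used as pairs in the main fit. The number of arrays limits the precision.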

Additional observations from a re-analysis of the deposited data

Results flagged for a closer look

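Of 196 groups of 4 arrays examined for the named genes and class medians, 14 held an array far from the others, where chance gives about 1 in 20. Psma5 was 0.623 on replicate 3 at 24 h, with the other arrays between 0.361 and 0.39. Psmb11 was 0.085 on replicate 2 at 4 h, with the other arrays between -0.218 and -0.193. Psmb3 was -2.78 on replicate 1 at 7 days, with the other arrays between -1.26 and -1.09. Psmb4 was 0.522 on replicate 2 at 7 days, with the other arrays between -0.072 and -0.011. Psmc3 was 0.702 on replicate 2 at 12 h, with the other arrays between -0.104 and -0.044. Psmd11 was 0.554 on replicate 3 at 2 h, with the other arrays between 0.818 and 0.832. Psmd11 was 0.718 on replicate 4 at 7 days, with the other arrays between 0.061 and 0.166. Psmd13 was -0.091 on replicate 2 at 4 h, with the other arrays between 0.108 and 0.114. Psme1 was 0.154 on replicate 2 at 1 h, with the other arrays between -0.01 and 0.012. Psme1 was -0.124 on replicate 2 at 12 h, with the other arrays between 0.027 and 0.042. Psme2 was -1.43 on replicate 1 at 1 h, with the other arrays between 0.118 and 0.425. Psme4 was 0.924 on replicate 1 at 7 days, with the other arrays between 0.228 and 0.336. Psmg1 was 0.14 on replicate 3 at 4 h, with the other arrays between -0.097 and -0.066. The core median was -0.364 on replicate 1 at 3 days, with the other arrays between 0.0235 and 0.102. Late and early times differed by limma for Psma2 (-0.42), Psma4 (-0.49), Psma5 (-0.89), Psma6 (-0.89), Psmb4 (-0.66), Psmb5 (-0.43), Psmc4 (-0.26), Psmc5 (-0.33) and Psmd11 (-0.46). Of these, Psma2, Psma5, Psmb4 and Psmd11 also passed with separate spreads.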

How the results depend on the processing

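The 9 genes lower late than early kept their sign in all 14 other fits except Psmb4 (0.095) without turning, where 0 of the 9 calls held. Other calls were lost too: Psma5, Psmb5, Psmc4 and Psmd11 with rows as deposited, all but 2 (Psma5 and Psmb4) without centring, Psma4, Psma6, Psmb5, Psmc4 and Psmc5 with separate spreads, Psmc5 with array weights or the median of probes, and Psmc4 with no dye effect, with quantile normalization or without the 3-day arrays. Leaving out each array in turn gave 6 to 10 called proteasome genes, and 471 to 621 calls over all genes. It kept all 9 signs, and 6 of the 9 stayed called each time (not Psmc4, Psmc5 and Psmd11). Without the 3-day arrays, added after seeing the data, 11 genes were called. The cause of each change below was not tested. Over all genes, calls in the other settings ran from 0 to 446 (1 h), 0 to 771 (2 h) and 1 to 371 (4 h). They ran from 0 to 293 (12 h), 0 to 361 (24 h), 0 to 1131 (3 days), 0 to 453 (5 days), 0 to 501 (7 days) and 212 to 924 (any time). Where a setting below has no count over all genes, its proteasome count has no background of its own. With quantile normalization, the count of called proteasome genes was 1 (1 h), 1 (2 h) and 8 (any time). With array weights, the count of called proteasome genes was 5 of 37 (1 h), 6 of 37 (2 h), 2 of 37 (4 h), 2 of 37 (12 h), 3 of 36 (24 h), 1 of 33 (3 days), 2 of 36 (5 days) and 13 of 30 (any time). Calls over all genes rose with array weights too, from 23 to 446 (1 h), 51 to 771 (2 h), 25 to 371 (4 h), 2 to 293 (12 h), 2 to 361 (24 h) and 431 to 924 (any time). Against 0 in place of untreated, the count of called proteasome genes was 3 (2 h), 1 (24 h), 1 (7 days) and 4 (any time). Calls over all genes at 7 days rose from 98 to 501 in this setting. Without turning the Cy3 arrays, the count of called proteasome genes was 7 of 33 (3 days), 1 of 34 (7 days), 2 of 31 (late minus early) and 4 of 30 (any time). Calls over all genes at 3 days rose from 44 to 1131 without turning. With rows as deposited, the count of called proteasome genes was 1 (7 days). Without centring, the count of called proteasome genes was 2 (late minus early). With separate spreads, the count of called proteasome genes was 4 (late minus early). With 1 dye term per group, the count of called proteasome genes was 7 (any time). With 1 probe per row, the count of called proteasome genes was 2 (any time). Without centring, class medians became core 0.040 (1 h), 0.088 (2 h), 0.086 (4 h), -0.10 (12 h), -0.056 (24 h), -0.43 (5 days) and -0.18 (7 days) and for regulatory -0.18 (1 h), -0.033 (2 h), -0.10 (4 h), -0.16 (12 h), -0.23 (24 h), -0.39 (5 days) and -0.26 (7 days). Without turning the Cy3 arrays, class medians became core 0.081 (1 h) and 0.14 (5 days) and for regulatory -0.15 (2 h), -0.035 (4 h), -0.11 (12 h), 0.12 (24 h), 0.034 (5 days) and 0.25 (7 days). With quantile normalization, class medians became core 0.34 (4 h) and for regulatory 0.20 (2 h) and 0.11 (4 h). With rows as deposited, class medians became core 0.085 (5 days) and for regulatory 0.073 (5 days) and -0.19 (7 days). With the median of probes, class medians became regulatory 0.16 (2 h). Without turning, the sign was opposite for Psmb11 (3 days, 0.75), Psmb4 (late minus early, 0.095), Psmd11 (3 days, -1.10), Psmg1 (late minus early, -0.42) and Psmg2 (3 days, -1.02). Leaving out 1 array at a time, the proteasome counts against untreated and for any time ran from 0 to 2 (1 h), 0 to 2 (2 h), 0 to 0 (4 h), 0 to 1 (12 h), 0 to 0 (24 h), 0 to 2 (3 days), 0 to 1 (5 days), 0 to 1 (7 days) and 1 to 6 (any time). The counts over all genes ran from 14 to 173 (1 h), 24 to 211 (2 h), 11 to 151 (4 h), 2 to 141 (12 h) and 2 to 129 (24 h). At later times they ran from 8 to 324 (3 days), 65 to 395 (5 days) and 40 to 326 (7 days), and for any time from 376 to 601. The core medians ran from 0.13 to 0.26 (1 h), 0.22 to 0.35 (2 h), 0.13 to 0.30 (4 h), 0.023 to 0.097 (12 h), 0.096 to 0.20 (24 h), -0.34 to -0.088 (3 days), -0.32 to -0.15 (5 days) and -0.092 to 0.12 (7 days). The regulatory medians ran from -0.075 to 0.058 (1 h), 0.16 to 0.23 (2 h), -0.029 to 0.12 (4 h), -0.064 to 0.031 (12 h), -0.086 to -0.038 (24 h), -0.17 to 0.14 (3 days), -0.23 to -0.086 (5 days) and -0.037 to 0.048 (7 days). Over all genes, late against early gave 555 calls, 202 without turning and 857 without the 3-day arrays. Array weights gave 446 calls at 1 h and 771 at 2 h, and only the arrays of the groups compared gave 0 at both. Without centring the all-gene median against untreated moved to between -0.24 and -0.12. Replicate numbers were not used as pairs in the main fit. Same-numbered arrays correlated at 0.015 on average, with 4 of 136 pairs over 0.1, and other-numbered arrays at -0.005. Of 35 arrays, 15 correlated best with their own number, and a weak pairing was not tested. The replicate block in place of the dye effect gave 9 called genes late against early. Signal over background is not in these files, so dim probes could not be set apart.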
